A study of Danio rerio with 18 samples.

Results

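Crystallins are the densely packed soluble proteins of the vertebrate lens, and the lens fibre genes encode the membrane proteins and filaments of the cells that hold them. The genes were chosen by name: zebrafish symbols that begin with cryaa, cryab, cryba, crybb, crygm, crygn, crygs or crygmx, and genes of the fibre membrane, the fibre cytoskeleton and lens transcription factors, among them MIP, LIM2, bfsp1, bfsp2, hsf4 and foxe3. The rule named 70 genes, and 60 of them were among the 25535 genes of the deposited table. The other 10 were not analysed here. By class, the 60 comprised 2 alpha, 7 beta A, 6 beta B, 26 gamma M, 3 gamma MX, 2 gamma N and 1 gamma S crystallin genes, 11 genes of the fibre membrane and cytoskeleton, and 2 lens transcription factors. Some zebrafish genes carry a human-type symbol in the symbol table, and the Ensembl identifier is then given.

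The lens forms from surface ectoderm over the optic cup. Some lens cells elongate into primary fibres, and an epithelium at the front keeps adding secondary fibres. Alpha crystallins are small heat shock proteins that act as chaperones, while beta and gamma crystallins are structural proteins that share a fold. Gamma M crystallins are a methionine-rich group greatly expanded in fish, and gamma N crystallins combine features of the beta and gamma families.

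The series measured poly(A) RNA by sequencing in 18 libraries of zebrafish (Danio rerio), each made from a pool of whole embryos, in 6 groups of 3. Sampled at 24 hours post fertilisation (hpf) were uninjected wild-type WIK embryos, embryos labelled as a her3 knockout (titled her3_38aa, genotype her3 -/-), WIK embryos injected at an early cleavage stage with a her3 morpholino (her3-MO), and WIK embryos that received a mismatch morpholino (mm-MO) and served as the injection control. WIK and the knockout-labelled line were sampled again at 72 hpf. A morpholino is an antisense oligomer that blocks splicing or translation of its target transcript, and her3 encodes a Hairy/E(spl)-type transcriptional repressor.

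The knockout line was sampled as 1 allele, and the lens is a small part of a whole embryo. In such bulk samples fewer lens cells and less lens RNA per cell cannot be told apart. Levels are in CPM, the unit to which the authors scaled each gene's reads, and they are compared within a gene or a class across groups, not between genes, because no lengths were used. The libraries held 14214136 to 23135995 reads. A library stood apart from the other members of its group in 4 groups: WIK 24 hpf replicate 1, her3-MO replicate 1, mm-MO replicate 3 and knockout-labelled 72 hpf replicate 3. The her3 transcript itself (listed as HES3) was 22.1 to 22.2 CPM in the knockout-labelled and 32.3 to 41.8 CPM in the her3-MO libraries, against 9.24 to 11.0 CPM in WIK and 7.66 to 8.09 CPM in mm-MO at 24 hpf. The targeted transcript was thus not reduced in either the knockout-labelled or the her3-MO libraries, and every direction below refers to the libraries so labelled.

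At 24 hpf the summed crystallin level was lowest in the knockout-labelled embryos and highest in the her3-MO embryos, and by 72 hpf the WIK and knockout-labelled lines overlapped. The 47 crystallin genes together reached 497, 411 and 385 CPM in the 3 WIK libraries at 24 hpf and 209, 330.4 and 232 CPM in the knockout-labelled ones. They reached 472, 540.3 and 780.1 CPM in mm-MO and 739, 736 and 819 CPM in her3-MO libraries. Every knockout-labelled library was therefore below every WIK library, and every her3-MO library above every WIK library, whereas the morpholino groups overlapped each other. At 72 hpf the sums were 8539, 9725 and 7330 CPM in WIK and 9095, 8203 and 6637 CPM in the knockout-labelled line, with overlapping ranges. As a share of all reads, crystallins took 0.0385% to 0.0412% in WIK and 0.0203% to 0.0314% in knockout-labelled libraries at 24 hpf, and 0.781% to 1.01% and 0.728% to 0.939% at 72 hpf.

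**Figure D1:**
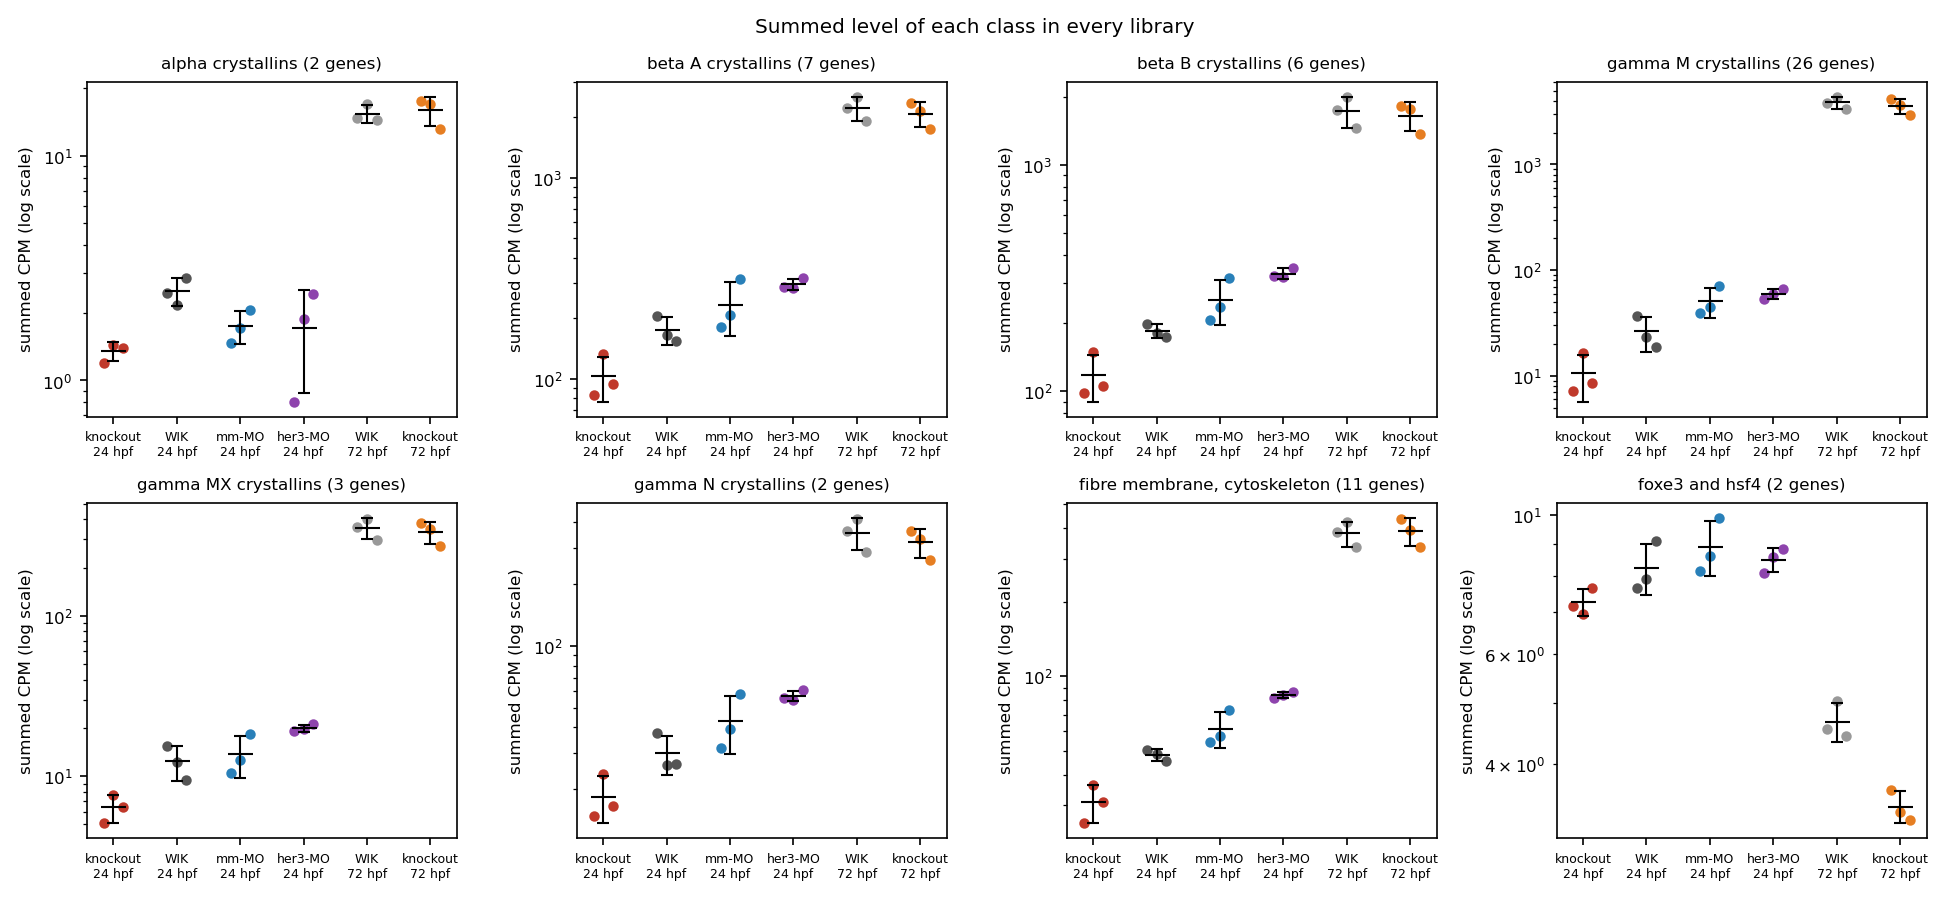
Summed CPM of each crystallin class, the fibre genes and the lens transcription factors in every library (points, log axis) with the group mean, for the 6 groups. The knockout-labelled mean is the lowest of the 24 hpf groups in every panel, though its libraries overlap those of WIK in the transcription factor panel. The 72 hpf groups overlap except for the transcription factors.

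The classes differed in how far apart the groups lay. Alpha crystallin genes summed to 2.46, 2.17 and 2.87 CPM in WIK, 1.20, 1.45 and 1.40 CPM in knockout-labelled, 1.47, 1.71 and 2.06 CPM in mm-MO and 0.805, 1.89 and 2.43 CPM in her3-MO libraries at 24 hpf. The mean alpha sum was 1.85-fold lower in the knockout-labelled libraries than in WIK, and alpha was the crystallin class whose mean was lower in both morpholino groups than in WIK. Beta A genes summed to 206, 165 and 153 CPM in WIK and 82.7, 132 and 93.8 CPM in knockout-labelled libraries, a 1.70-fold lower mean. The same genes summed to 180.5, 206 and 313 CPM in mm-MO and 287, 282 and 316 CPM in her3-MO. Beta B genes summed to 199, 182 and 174 CPM in WIK and 98.0, 149 and 106 CPM in knockout-labelled libraries, a 1.57-fold lower mean. They summed to 208, 235 and 318 CPM in mm-MO and 322, 319 and 352 CPM in her3-MO, and here the morpholino groups did not overlap.

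Gamma M genes showed the greatest ratio of the classes at 24 hpf. They summed to 37.2, 23.3 and 18.7 CPM in WIK and 7.15, 16.4 and 8.54 CPM in knockout-labelled libraries, a 2.47-fold lower mean. In mm-MO they summed to 39.5, 44.8 and 70.3 CPM and in her3-MO to 53.8, 59.1 and 66.8 CPM, both above every WIK library. Gamma MX genes summed to 15.5, 12.2 and 9.41 CPM in WIK, 5.10, 7.65 and 6.40 CPM in knockout-labelled, 10.5, 12.6 and 18.4 CPM in mm-MO and 19.2, 19.7 and 21.1 CPM in her3-MO libraries. The knockout-labelled mean of this class was 1.94-fold below that of WIK. Gamma N genes summed to 37.5, 26.2 and 26.4 CPM in WIK, 14.8, 23.8 and 16.7 CPM in knockout-labelled, 31.9, 39.4 and 58.1 CPM in mm-MO and 56.0, 54.2 and 60.6 CPM in her3-MO libraries, and the knockout-labelled mean was 1.63-fold below WIK. The gamma S gene, CRYGS (ENSDARG00000042992), stayed between 0 and 0.167 CPM in every library, a few reads at most, and was not tested.

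The fibre membrane and cytoskeleton genes followed the crystallins in order. They summed to 50.5, 48.5 and 45.3 CPM in WIK and 25.4, 36.5 and 30.9 CPM in knockout-labelled libraries, a 1.56-fold lower mean. They summed to 54.1, 57.2 and 72.9 CPM in mm-MO and 81.8, 84.2 and 86.8 CPM in her3-MO, which did not overlap each other or WIK. The transcription factors foxe3 and hsf4 summed to 7.64, 7.92 and 9.11 CPM in WIK and 7.15, 6.96 and 7.66 CPM in knockout-labelled libraries, which overlapped. They summed to 8.15, 8.62 and 9.90 CPM in mm-MO and 8.10, 8.57 and 8.82 CPM in her3-MO, within or near the range of WIK.

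At 72 hpf the WIK and knockout-labelled libraries overlapped in each crystallin class with tested genes and in the fibre genes. The alpha genes then summed to 14.7, 17.0 and 14.5 CPM in WIK and 17.6, 17.1 and 13.2 CPM in the knockout-labelled line. The beta A genes summed to 2215, 2525 and 1910 CPM and 2351, 2133 and 1755 CPM, and the beta B genes to 1740, 1994 and 1449 CPM and 1814, 1763 and 1374 CPM. In both beta classes WIK replicate 3 and knockout-labelled replicate 3 were the lowest of their groups. The gamma MX genes summed to 359.9, 404 and 299 CPM and 378, 347 and 274 CPM, and the gamma N genes to 363, 412 and 287 CPM and 363, 329 and 261 CPM. The fibre genes summed to 386, 420.1 and 333 CPM and 434, 391.7 and 334 CPM. The transcription factors were the exception, at 4.54, 5.05 and 4.42 CPM in WIK and 3.63, 3.35 and 3.25 CPM in the knockout-labelled line, a 1.37-fold lower mean without overlap.

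Between 24 and 72 hpf nearly all of these genes rose, in both lines. Tests used limma on log2(CPM + 0.5) over all 18 libraries, with Benjamini-Hochberg adjustment over the 20738 genes that had at least 1 CPM in at least 3 libraries, and a gene was called at an adjusted p under 0.05. Log2 differences carry their standard error after ±, and the added constant understates the change of low genes. Of the 60 genes 56 were tested, and 18 of these passed the level filter only through the 72 hpf libraries, so that they were selected toward a higher level at 72 hpf. In WIK 53 of the 56 were higher and 3 lower at 72 than at 24 hpf, beside 38.6% and 36.0% of all genes tested. In the knockout-labelled line the counts were also 53 and 3, beside 37.1% and 37.8%. Of the 38 genes that passed on the 24 hpf libraries alone, 35 were higher and 3 lower in each line. Of all genes passing that filter 31.9% were higher and 40.2% lower in WIK, and 30.4% and 42.2% in the knockout-labelled line. Those that fell included foxe3 and crybb3.

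The rise differed in size between the classes. The gamma M sum was 146.2-fold higher at 72 than at 24 hpf in WIK and 335.1-fold higher in the knockout-labelled line, from 37.2, 23.3 and 18.7 CPM to 3847, 4373 and 3370 CPM in WIK libraries and from 7.15, 16.4 and 8.54 CPM to 4171, 3614 and 2960 CPM in knockout-labelled ones. The beta A sum was 12.7-fold higher in WIK and 20.2-fold higher in the knockout-labelled line, and the beta B sum 9.35-fold and 14.0-fold. The gamma MX sum was 28.6-fold and 52.2-fold higher, the gamma N sum 11.8-fold and 17.2-fold, and the alpha sum 6.17-fold and 11.8-fold. The fibre sum was 7.89-fold and 12.5-fold higher. In each of these classes the ratio was greater in the knockout-labelled line, whose 24 hpf sums were lower and whose 72 hpf sums overlapped those of WIK.

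The share of its 72 hpf level that a gene had at 24 hpf was lowest, at the median, in gamma M. Single genes overlapped between the classes. In WIK the gamma M gene crygm2d8 was at 1.82%. LIM2 (ENSDARG00000041295) was at 0.461% and crygmxl1 at 1.13%, each from 3 reads at 24 hpf, and bfsp2 was at 1.67%. The median gamma M gene stood at 0.22% of its 72 hpf level in WIK and 0.0702% in the knockout-labelled line. The medians were 7.80% and 4.82% for beta A, 11.1% and 6.62% for beta B, 2.01% and 1.16% for gamma MX, and 14.1% and 10.7% for the fibre genes. In WIK 8 gamma M genes had no read at 24 hpf in any of the 3 libraries: crygm2c, crygm2d1, crygm2d11, crygm2d14, crygm2d2, crygm2e, crygm2f and crygm5. In the knockout-labelled line 8 gamma M genes also had none, with crygm2d15 in place of crygm2d14. How reads that fit several crygm2d genes were counted is not known, so values of single crygm2d genes, also those at 0, are uncertain. For crygm2d11, at 102, 129 and 86.8 CPM in WIK at 72 hpf, the level was at least 561-fold higher than at 24 hpf, taken against a floor of 3 reads per library. Against the same floor crygm5, another fish gamma M gene, was at least 32.0-fold higher in WIK and 39.4-fold higher in the knockout-labelled line.

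**Figure D2:**
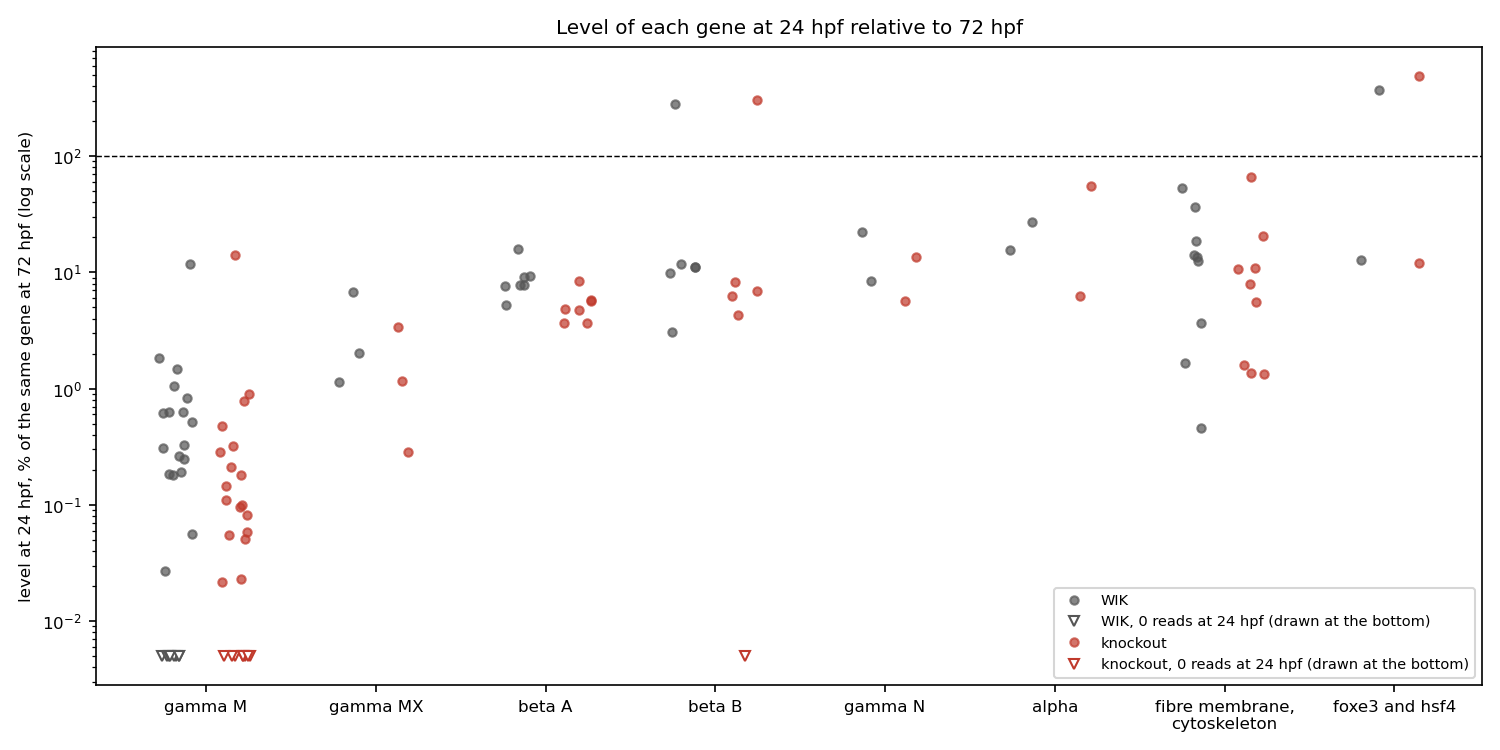
Mean level at 24 hpf as a percentage of the mean level at 72 hpf for each gene shown (points, log axis), by class, in WIK and the knockout-labelled line; genes with 0 reads at 24 hpf are drawn at the bottom. Most gamma M genes lie below most of the beta and fibre genes, and foxe3 and crybb3 lie above their 72 hpf level.

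Named examples span this range. The gene crygm2d18 went from 0.509, 0.634 and 0.460 CPM at 24 hpf to 303, 337 and 252 CPM at 72 hpf in WIK, which is 8.16 ± 0.17 on the log2 scale (adjusted p = 5.45e-16). The gene crygm2d7 went from 0.150, 0.161 and 0.140 CPM to 352, 277 and 252 CPM in the knockout-labelled line, 8.81 ± 0.36 on the log2 scale (adjusted p = 1.21e-12). No library at 24 hpf overlapped one at 72 hpf for either gene. The beaded-filament gene bfsp2, which encodes phakinin, went from 1.87, 1.37 and 1.13 CPM to 91.6, 103 and 66.7 CPM in WIK. Its partner bfsp1, which encodes filensin, went from 0.594, 1.37 and 1.48 CPM to 8.44, 9.41 and 7.57 CPM, so that bfsp2 stood at 1.67% of its 72 hpf level and bfsp1 at 13.6% of its own.

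The transcription factor foxe3, which in mouse keeps the lens epithelium proliferating, went the other way. In WIK it fell from 7.56, 7.71 and 8.44 CPM at 24 hpf to 2.34, 1.91 and 2.19 CPM at 72 hpf, and in the knockout-labelled line from 7.15, 6.48 and 7.42 CPM to 1.23, 1.34 and 1.74 CPM. Its level at 24 hpf was 368% of that at 72 hpf in WIK. The other factor, hsf4, which in mouse is required for fibre gene expression, rose from 0.0849, 0.211 and 0.665 CPM to 2.196, 3.13 and 2.24 CPM in WIK (1.93 ± 0.25, adjusted p = 2.7e-06). The beta B gene crybb3 fell from 1.27, 1.69 and 1.48 CPM to 0.439, 0.585 and 0.559 CPM, against the direction of the other tested beta B genes.

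At 24 hpf the knockout-labelled embryos had lower levels of crystallins of every tested class and of 4 fibre genes than WIK embryos. Of the 56 genes tested 24 were lower, beside 6.63% of all genes tested, and 0 were higher, beside 6.01%. At an unadjusted p under 0.05 limma gave 30 lower and 1 higher, beside 13.2% and 14.8%, and voom, limma's fit on the reads recovered from the CPM values, called 13 lower and 0 higher, beside 5.73% and 5.27%. The lower genes were cryaa, 6 of 7 beta A, 3 of 5 beta B, 7 of 25 gamma M, 2 of 3 gamma MX, 1 of 2 gamma N and 4 of 11 fibre genes, and neither of the transcription factors. The median log2 difference was −0.535 over the 56 and 0.03 over all genes tested. Among the 56, 45 genes had a negative difference and 4 a positive one, beside 46.1% and 53.7% of all genes. In 29 of the 56 all knockout-labelled libraries lay below all WIK libraries, beside 14.6%.

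The number of calls rested on few libraries. Without knockout-labelled replicate 1 it was 4 (beside 3.96% of all genes), without knockout-labelled replicate 3 it was 11 (4.41%), without WIK replicate 1 it was 14 (5.17%), and without the 4 libraries that stand apart 18 (9.2%). With the compared groups alone in the fit 3 genes were called, beside 2.46%. Of 18 called genes followed over all settings 1 kept its call under each. The call of CRYGN (ENSDARG00000030411) was lost in 7 of 16 settings and those of cryba4 and crygm2d8 in 6 of 16. Those of crybb1l2, crygmx and MIP (ENSDARG00000037285) were lost in 5 of 16. By contrast those of cryaa, crygm2d7 and MIP (ENSDARG00000013963) were lost in 1 of 16.

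The alpha crystallin gene cryaa, a chaperone of the lens, was at 2.21, 2.06 and 2.71 CPM in WIK and 0.800, 0.963 and 1.07 CPM in knockout-labelled libraries. The groups did not overlap, and cryaa fell by 0.96 ± 0.24 on the log2 scale (adjusted p = 0.0137), a call lost without knockout-labelled replicate 1. The other alpha gene, CRYAB (ENSDARG00000101380), did not pass the level filter. It was at 0.255, 0.106 and 0.153 CPM in WIK and 0.400, 0.482 and 0.327 CPM in the knockout-labelled libraries, each of them above WIK, from 8 reads in all in WIK and 24 in the knockout-labelled libraries.

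Among the structural beta crystallins 6 beta A and 3 beta B genes fell, and the log2 differences ran from −0.82 to −0.20 in beta A and from −0.73 to −0.10 in beta B. The beta A gene cryba1l1 was at 42.5, 39.7 and 36.6 CPM in WIK and 17.6, 29.8 and 22.2 CPM in knockout-labelled libraries, and fell by 0.79 ± 0.18 (adjusted p = 0.00962). The gene cryba4 was at 57.0, 40.5 and 40.2 CPM and 21.7, 33.7 and 25.4 CPM, and fell by 0.76 ± 0.22 (adjusted p = 0.0328). Neither gene overlapped between the groups, and in both knockout-labelled replicate 2 was the highest of its group. The beta B gene crybb1l1 was at 60.0, 64.5 and 59.4 CPM and 31.2, 47.5 and 33.9 CPM, and fell by 0.72 ± 0.17 (adjusted p = 0.00848). The gene crybb1l2 was at 75.7, 60.3 and 59.5 CPM and 33.6, 52.7 and 37.0 CPM, and fell by 0.68 ± 0.19 (adjusted p = 0.0277). The groups were again separate for both. The beta genes that did not pass were cryba1a, crybb1l3 and crybb3, with log2 differences of −0.20, −0.56 and −0.10.

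The gamma M crystallins held the greatest single differences. The gene crygm2d7 was at 3.99, 1.06 and 0.972 CPM in WIK and 0.150, 0.161 and 0.140 CPM in knockout-labelled libraries, which is 3 reads in each of the latter. It fell by 1.74 ± 0.36 on the log2 scale (adjusted p = 0.0039), a size that depends on the pseudocount at so few reads and to which WIK replicate 1 contributed the highest value. The gene crygm2d13 was at 6.03, 4.12 and 3.33 CPM and 1.20, 3.05 and 1.31 CPM, and fell by 1.13 ± 0.26 (adjusted p = 0.00932). The gene crygm2d10 was at 2.04, 1.06 and 1.74 CPM and 0.200, 0.642 and 0.607 CPM, and fell by 1.11 ± 0.26 (adjusted p = 0.00882). In each of these genes every knockout-labelled library was below every WIK library. The gene crygm2d8 was at 9.51, 6.81 and 5.99 CPM and 2.15, 5.78 and 2.75 CPM, and fell by 1.04 ± 0.28 (adjusted p = 0.0223). By contrast crygm2d19, at 8.49, 5.39 and 2.87 CPM and 1.90, 4.23 and 1.91 CPM, overlapped between the groups and did not pass (−0.90 ± 0.33, adjusted p = 0.0875). The crygm2d genes may be similar enough to share reads, which was not examined, and how multi-mapping reads were treated is not given in the sources used here. The split of reads among them is therefore uncertain. The gamma M sum does not depend on that split, but it too would lack any reads that were left out.

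Of the gamma MX and gamma N genes 3 fell. The gene crygmx was at 10.3, 6.71 and 5.63 CPM in WIK and 3.25, 4.92 and 3.501 CPM in knockout-labelled libraries, and fell by 0.85 ± 0.22 (adjusted p = 0.0171). The gene crygmxl2 was at 5.09, 5.44 and 3.79 CPM and 1.85, 2.73 and 2.85 CPM, and fell by 0.83 ± 0.19 (adjusted p = 0.00966). Both were separate between the groups. The remaining gamma MX gene, crygmxl1, had 3 reads in all in WIK and 1 in knockout-labelled libraries at 24 hpf and did not pass (−0.15 ± 0.18, adjusted p = 0.614). The gene CRYGN (ENSDARG00000030411) was at 37.2, 26.0 and 26.1 CPM and 14.2, 23.5 and 16.2 CPM, and fell by 0.72 ± 0.22 (adjusted p = 0.0384). The second gamma N gene, CRYGN (ENSDARG00000102129), was at 0.340, 0.211 and 0.307 CPM and 0.600, 0.321 and 0.467 CPM, a log2 difference of 0.29 ± 0.22 that did not pass (adjusted p = 0.419).

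**Figure D3:**
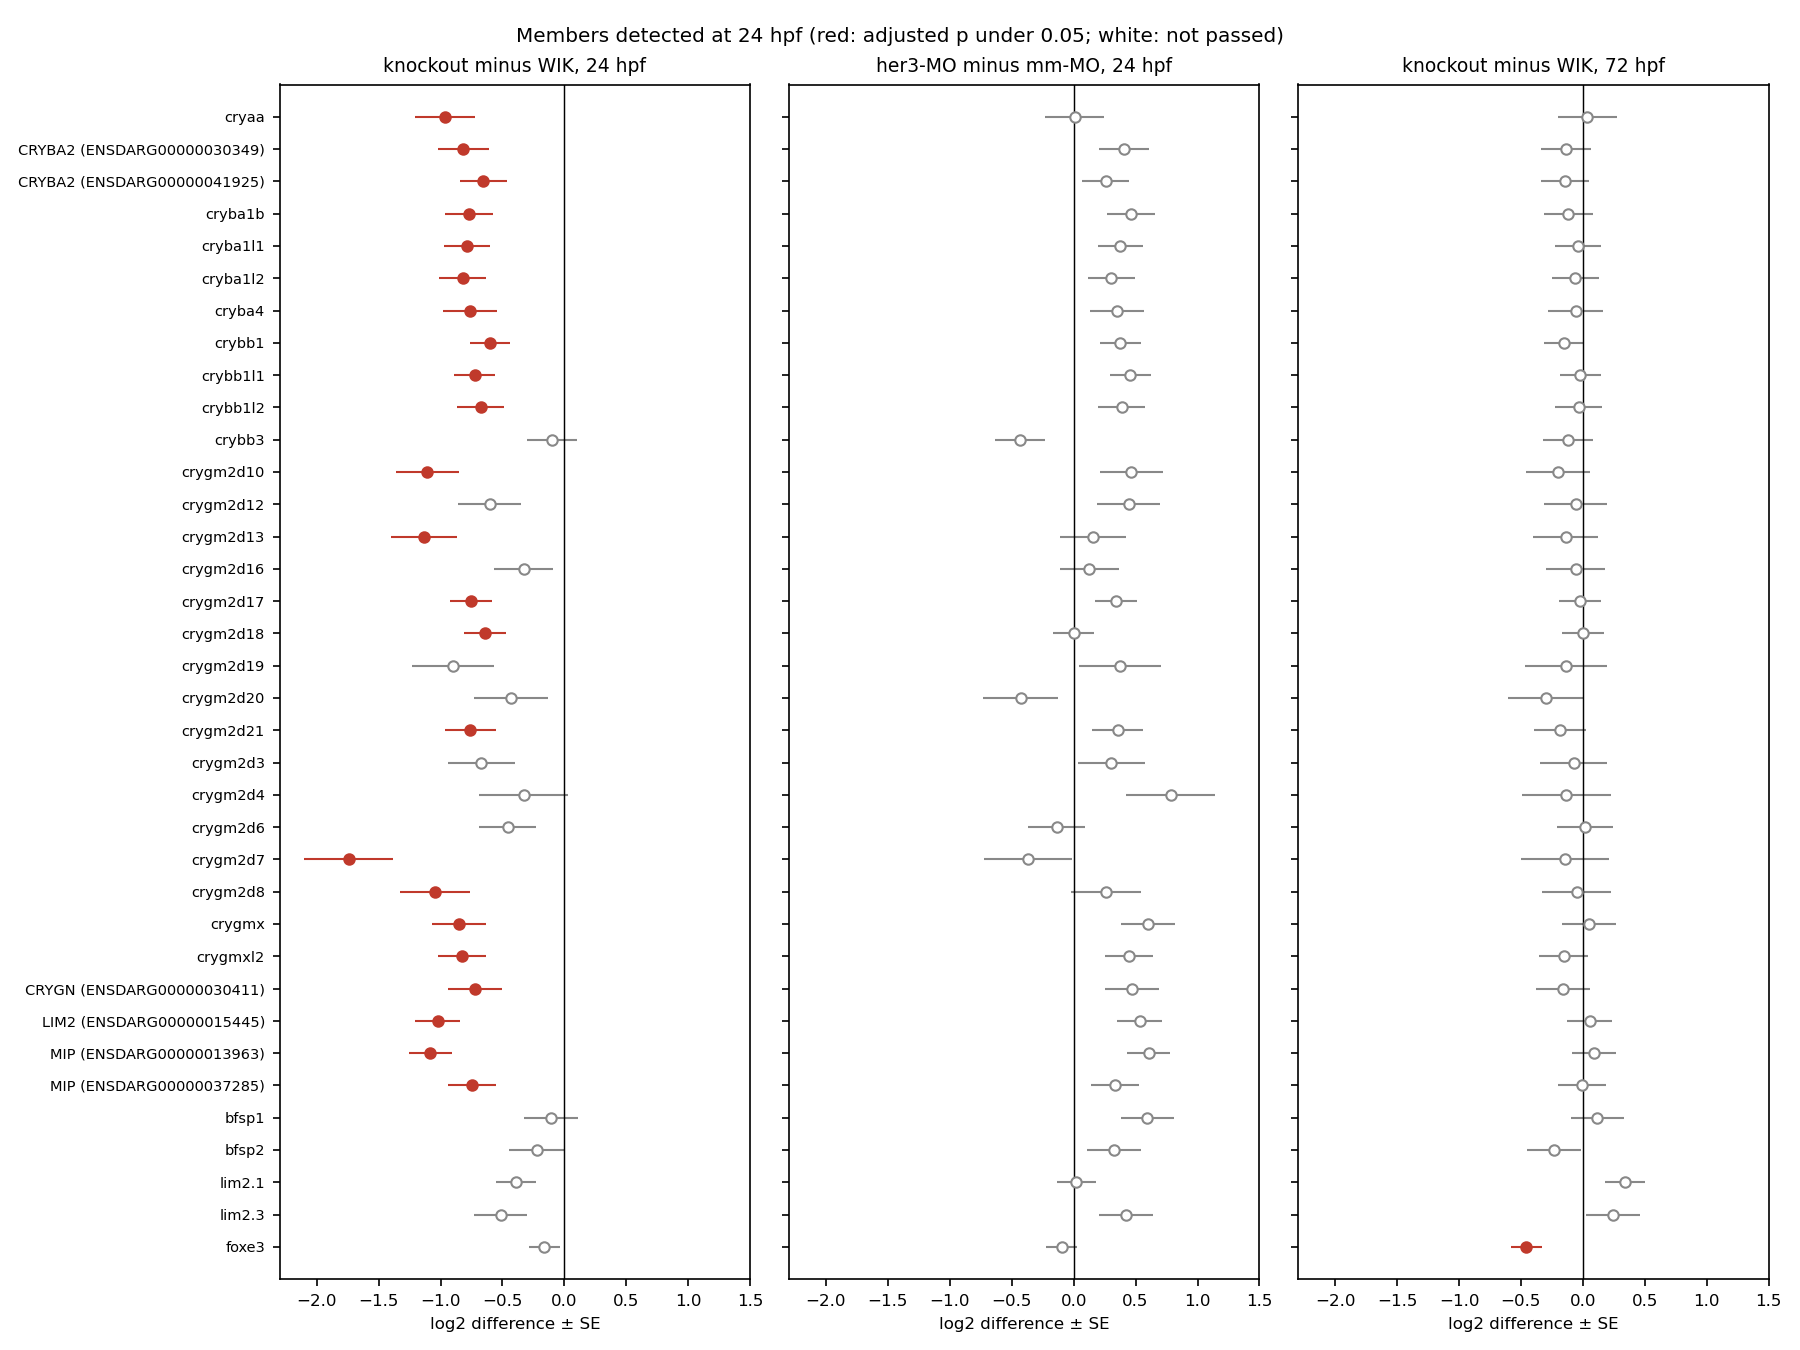
Log2 difference ± SE of 36 of the genes that passed on the 24 hpf libraries, a filter that a gene can pass through the groups in which it is high, grouped by class, for the knockout-labelled line against WIK at 24 hpf, her3-MO against mm-MO at 24 hpf, and the knockout-labelled line against WIK at 72 hpf, with filled points for an adjusted p under 0.05. All 36 points are below 0 in the first comparison, 30 are above 0 in the second, and in the third 27 are below and 9 above 0.

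Of the fibre genes, those of membrane proteins gave the calls. MIP (ENSDARG00000013963), a gene of the water channel of the fibre membrane, was at 3.65, 3.70 and 2.66 CPM in WIK and 1.000, 1.82 and 1.17 CPM in knockout-labelled libraries. It fell by 1.08 ± 0.18 (adjusted p = 0.000605), with no overlap. The other copy, MIP (ENSDARG00000037285), was at 7.05, 5.60 and 4.81 CPM and 2.60, 4.44 and 2.89 CPM, and fell by 0.74 ± 0.19 (adjusted p = 0.0189). LIM2 (ENSDARG00000015445), which encodes an intrinsic membrane protein of fibre cells, was at 15.4, 10.6 and 10.1 CPM and 4.65, 6.42 and 5.79 CPM. It fell by 1.02 ± 0.18 (adjusted p = 0.00128), and its call alone among the named genes held under every alternative tried.

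Other fibre genes did not pass. Log2 differences were −0.11 for bfsp1, −0.23 for bfsp2, −0.39 for lim2.1, −0.51 for lim2.3, 0.31 for lim2.2 and 0.32 for LIM2 (ENSDARG00000041295). The transcription factors also did not pass: foxe3 was at 7.56, 7.71 and 8.44 CPM in WIK and 7.15, 6.48 and 7.42 CPM in knockout-labelled libraries (−0.16 ± 0.12, adjusted p = 0.413). The values of hsf4 were 0.0849, 0.211 and 0.665 CPM and 0, 0.482 and 0.233 CPM, and the groups overlapped.

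**Figure D4:**
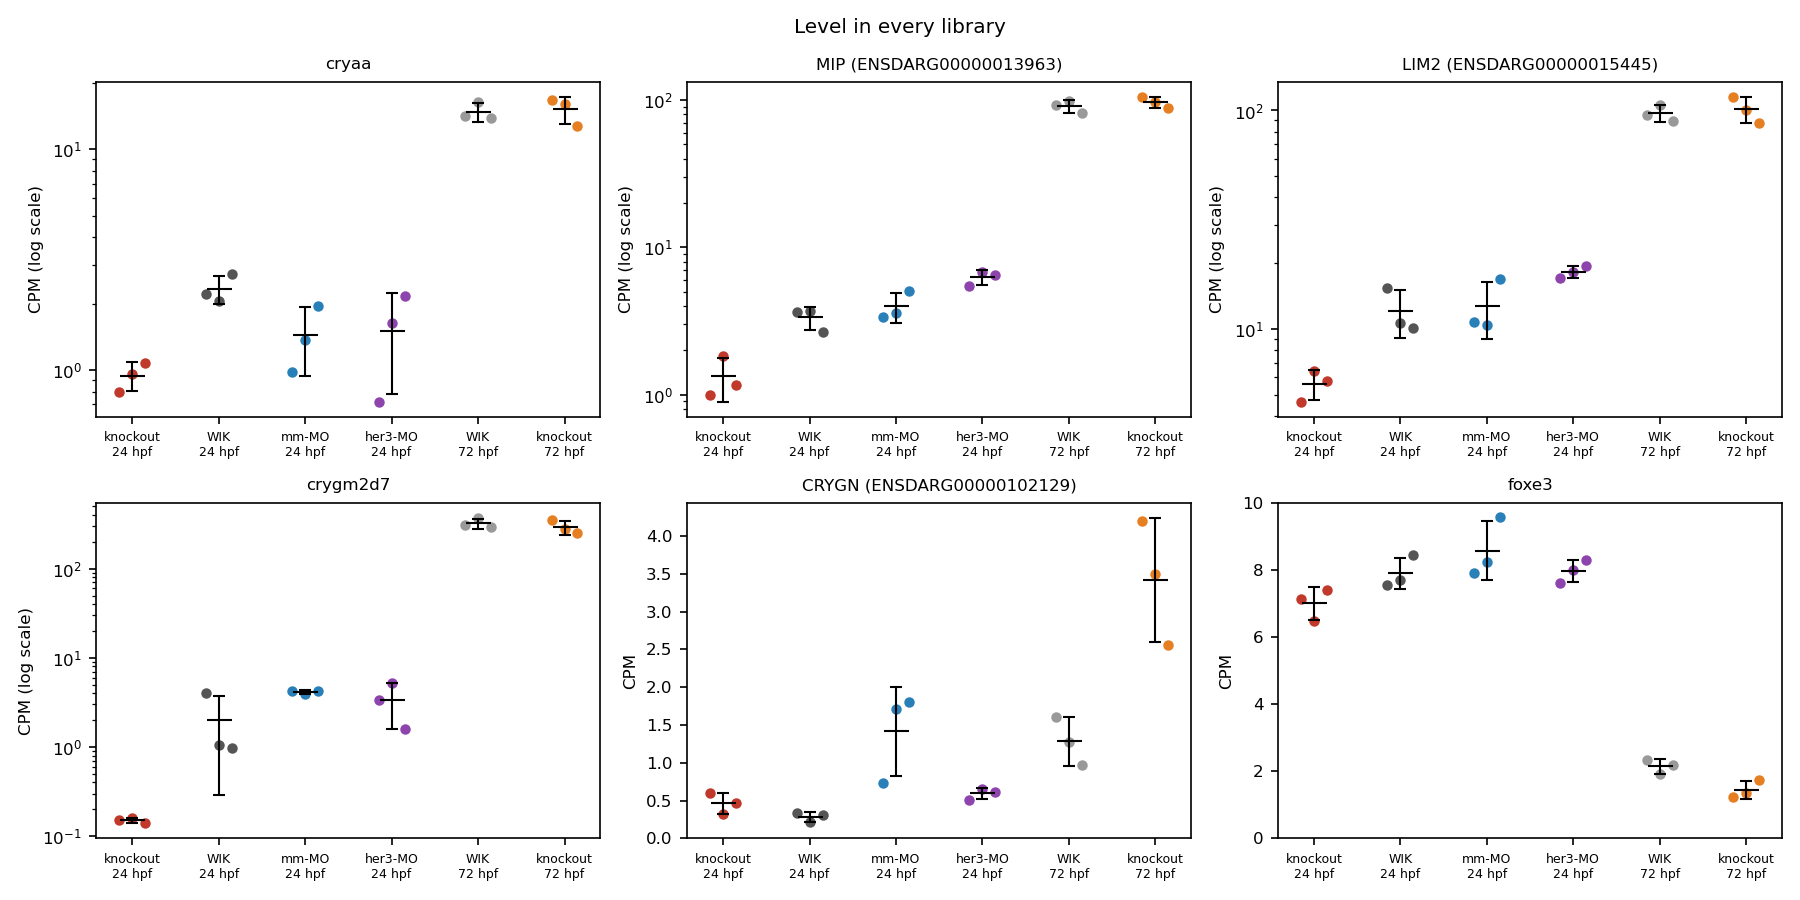
CPM in every library of the 6 groups (points, with the group mean) for cryaa, MIP (ENSDARG00000013963), LIM2 (ENSDARG00000015445), crygm2d7, CRYGN (ENSDARG00000102129) and foxe3. The 24 hpf knockout-labelled libraries are lowest for the first 4 genes, with exceptions in cryaa. There 1 her3-MO library lies below all of them and 1 mm-MO library below 1 of them. CRYGN (ENSDARG00000102129) is higher in the knockout-labelled line at 72 hpf, and foxe3 is lower at 72 than at 24 hpf.

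At 72 hpf few of the genes were called between the lines, and their number did not exceed the share over all genes. Of the 56 tested 3 (5.36%) were lower, beside 5.71% of all genes tested, and 1 (1.79%) was higher, beside 5.11%. A negative difference was found in 42 of the 56 and a positive one in 14, beside 51.2% and 48.8%. At an unadjusted p under 0.05 limma gave 3 lower and 2 higher, beside 11.8% and 11.2%. By voom 1 was lower and 1 higher, beside 5.74% and 5.4%. The median log2 difference was −0.10, against −0.01 over all genes. The higher gene was CRYGN (ENSDARG00000102129), at 1.61, 1.27 and 0.966 CPM in WIK and 4.20, 3.49 and 2.56 CPM in the knockout-labelled line, with no overlap (1.13 ± 0.22, adjusted p = 0.00312). This call held under each alternative in which the gene was tested.

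The lower genes were 2 gamma M genes and a transcription factor. The gene crygm2c was at 1.90, 2.82 and 1.32 CPM in WIK and 1.43, 1.00 and 0.915 CPM in the knockout-labelled line, ranges that overlapped (−0.61 ± 0.17, adjusted p = 0.0288). The gene crygm2e was at 2.29, 2.92 and 2.24 CPM and 1.79, 1.48 and 1.56 CPM, without overlap (−0.50 ± 0.11, adjusted p = 0.00711). The factor foxe3 was at 2.34, 1.91 and 2.19 CPM and 1.23, 1.34 and 1.74 CPM, without overlap (−0.46 ± 0.12, adjusted p = 0.0259). The call of foxe3 was lost without WIK replicate 1 or 3 and without knockout-labelled replicate 1 or 2, and that of crygm2c without WIK replicate 1 or 2 and without knockout-labelled replicate 2 or 3. Over all settings the call of foxe3 was lost in 8 of 16, that of crygm2c in 8 of 15 and that of crygm2e in 2 of 15. Each was lost with the compared groups alone in the fit, and those of foxe3 and crygm2c also with voom. The number of lower genes was 1 or 2 without any 1 of the 6 libraries at 72 hpf, and 2 were lower and 2 higher without the 4 libraries that stand apart, beside 11.0% and 11.4% of all genes.

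The abundant fibre and crystallin genes that were lower at 24 hpf lay close together at 72 hpf. MIP (ENSDARG00000013963) was at 93.2, 99.0 and 81.3 CPM in WIK and 105, 97.7 and 88.1 CPM in the knockout-labelled line at 72 hpf. The gene cryaa was at 14.1, 16.4 and 13.8 CPM and 16.8, 16.0 and 12.8 CPM, and crygm2d13 at 422, 469 and 398 CPM and 451, 393 and 333 CPM. All 3 genes overlapped between the lines at this age.

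Whether the difference between the lines itself changed with age was tested as the difference at 72 hpf minus that at 24 hpf. Of the 56 genes 2 passed with a higher value at 72 hpf, beside 2.5% of all genes tested, and 0 with a lower one, beside 2.15%. At an unadjusted p under 0.05 limma gave 23 higher and 2 lower, beside 9.57% and 11.2%, and voom called 2 higher and 0 lower, beside 1.76% and 1.34%. The 2 calls are 3.57% of the members, close to the share over all genes. The genes that passed were MIP (ENSDARG00000013963) (1.17 ± 0.25, adjusted p = 0.012) and LIM2 (ENSDARG00000015445) (1.08 ± 0.26, adjusted p = 0.0241). Both encode fibre membrane proteins, and both were lower in knockout-labelled libraries at 24 hpf and overlapped at 72 hpf. The call of LIM2 (ENSDARG00000015445) was lost without knockout-labelled 24 hpf replicate 1, WIK 72 hpf replicate 1 or 3, or knockout-labelled 72 hpf replicate 1 or 2. The number of higher genes was 7 without knockout-labelled 24 hpf replicate 2 (beside 2.0% of all genes), 3 without WIK 24 hpf replicate 3 (2.99%), and 8 without the 4 libraries that stand apart (5.35%).

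In her3-MO embryos most lens genes lay above their injection control, the opposite sign to that in the knockout-labelled line at 24 hpf, and few passed the test. Against mm-MO, the injection control, 43 of the 56 genes had a positive log2 difference in her3-MO and 11 a negative one, beside 50.4% and 49.4% of all genes, and the median was 0.28 against 0.00181 over all genes. Of the 56 genes 0 were called higher, beside 1.45% of all genes tested, and 1 was called lower, beside 1.9%. At an unadjusted p under 0.05 limma gave 12 higher and 3 lower, beside 6.7% and 8.53%, and voom called 1 higher and 1 lower, beside 1.74% and 2.26%. In 11 of the 56 all her3-MO libraries lay above all mm-MO libraries, beside 10.2% of all genes. Without mm-MO replicate 3, the library with the highest lens values of its group, 3 genes were higher, beside 1.36% of all genes, and without the 4 libraries that stand apart 7 were higher, beside 6.01%.

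The lower gene was LIM2 (ENSDARG00000041295), at 0.0424, 0 and 0 CPM in her3-MO and 0.163, 0.333 and 0.258 CPM in mm-MO. These are a few reads per library, and the call (−0.54 ± 0.14, adjusted p = 0.0498) was lost without any 1 of the 6 morpholino libraries. MIP (ENSDARG00000013963) was at 5.47, 6.81 and 6.53 CPM in her3-MO and 3.343, 3.58 and 5.05 CPM in mm-MO (0.61 ± 0.18, adjusted p = 0.0765). The gene was separate between the groups and did not pass. The gene cryaa was at 0.721, 1.64 and 2.16 CPM in her3-MO and 0.979, 1.38 and 1.96 CPM in mm-MO, a difference of 0.01 ± 0.24 between groups that overlapped.

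Against uninjected WIK, her3-MO embryos had higher levels of many of the same classes. This comparison shares its WIK libraries with the knockout-labelled comparison at 24 hpf, so the values are given side by side only. Of the 56 genes 26 were higher, beside 6.71% of all genes tested, and 0 lower, beside 7.74%. At an unadjusted p under 0.05 limma gave 36 higher and 1 lower, beside 17.3% and 16.1%, and voom called 19 higher and 0 lower, beside 5.39% and 6.96%. A positive difference was found in 50 of the 56 and a negative one in 3, beside 51.7% and 48.1% of all genes. The median was 0.645 over the 56 and 0.0138 over all genes. For mm-MO against WIK the median over the 56 was 0.336. The higher genes were 5 beta A, 4 beta B, 9 gamma M, 1 gamma MX, 1 gamma N and 6 fibre genes. The number was 16 without her3-MO replicate 2 (beside 2.12% of all genes), 11 without her3-MO replicate 3 (2.62%), 3 with the compared groups alone in the fit (0.198%), 34 with scaling to plain read totals (14.9%), and 32 without the 4 libraries that stand apart (9.19%). Plain totals moved the median of all genes to 0.165 and that of the members to 0.80. Markers of other cell types also differed in this comparison. Of 6 skeletal muscle genes 4 were lower in her3-MO than in WIK (median −0.58), as were 2 of 9 small heat shock protein genes outside the rule (median −0.42) and 3 of 17 genes that regulate lens development (median −0.16), while 5 of 9 pigment epithelium genes were higher (median 0.39). The muscle list summed to 4710 to 8410 CPM in her3-MO and 7960 to 9370 CPM in WIK libraries. The part of these differences in the lens values was not tested.

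Examples come from each role. The gene crybb1l1 was at 108, 113 and 127 CPM in her3-MO against 60.0, 64.5 and 59.4 CPM in WIK (0.91 ± 0.17, adjusted p = 0.0031), and cryba1l1 at 70.1, 67.3 and 73.3 CPM against 42.5, 39.7 and 36.6 CPM (0.82 ± 0.18, adjusted p = 0.0106). Both were separate between the groups, and both calls held under every alternative tried. The gene crygm2d19 was at 9.75, 13.0 and 16.9 CPM against 8.49, 5.39 and 2.87 CPM (1.25 ± 0.33, adjusted p = 0.0226), and crygm2d3 at 1.61, 2.79 and 2.07 CPM against 1.27, 0.422 and 0.409 CPM (1.20 ± 0.27, adjusted p = 0.0112). The beaded-filament gene bfsp1 was at 1.99, 2.67 and 2.29 CPM against 0.594, 1.37 and 1.48 CPM (0.81 ± 0.22, adjusted p = 0.0226). These last calls were less stable: that of crygm2d19 was lost in 4 of 16 settings, that of crygm2d3 in 3 of 16 and that of bfsp1 in 4 of 16.

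Some of these genes were also higher in mm-MO than in uninjected WIK. Of the 56 genes 7 were higher in mm-MO, beside 4.99% of all genes tested, and 0 lower, beside 5.48%. At an unadjusted p under 0.05 limma gave 20 higher and 1 lower, beside 13.8% and 12.8%. By voom 2 were higher and 0 lower, beside 4.44% and 5.2%, so that the share of members was then below that of all genes. The signs leaned one way, with 47 of the 56 positive and 5 negative, beside 53.4% and 46.4% of all genes. The median log2 difference was 0.336 over the 56 and 0.0258 over all genes. The 7 included crygm2d3, crygm2d13, crygm2d17, crygm2d18, crygm2d20 and CRYGN (ENSDARG00000102129). Of the 7 calls 0 held under every setting. That of crygm2d3 was lost in 11 of 16 settings, that of crygm2d13 in 10 of 16 and that of crygm2d17 in 8 of 16. The losses were fewer for crygm2d20 (4 of 16), crygm2d18 (3 of 16) and CRYGN (ENSDARG00000102129) (1 of 15). The gene crygm2d20 was at 1.101, 1.83 and 2.89 CPM in mm-MO against 0.764, 0.158 and 0.614 CPM in WIK (1.26 ± 0.30, adjusted p = 0.0145), and CRYGN (ENSDARG00000102129) at 0.734, 1.71 and 1.80 CPM against 0.340, 0.211 and 0.307 CPM (1.23 ± 0.22, adjusted p = 0.00235). The number was 11 without WIK replicate 1 (beside 3.93% of all genes), 4 without WIK replicate 2 or 3 (4.72% and 7.29%), 2 without mm-MO replicate 2 (2.34%) and 3 without mm-MO replicate 3 (5.8%). Without the 4 libraries that stand apart 8 were higher and 1 lower, beside 7.3% and 9.09%. The number was 21 with plain totals, beside 9.09%, which moved the median of all genes to 0.127.

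The knockout-labelled and morpholino effects were compared directly as the difference between knockout-labelled and WIK minus that between her3-MO and mm-MO, contrasts with no library in common. This comparison was added after the data were seen. Of the 56 genes 20 had a lower value in the knockout-labelled contrast, beside 3.8% of all genes tested, and 1 had a higher one, beside 3.86%. The median was −0.90 on the log2 scale. The gene with the higher value was LIM2 (ENSDARG00000041295) (0.86 ± 0.20, adjusted p = 0.0144). Among the lower ones, MIP (ENSDARG00000013963) differed by −1.69 ± 0.25 (adjusted p = 0.000367), LIM2 (ENSDARG00000015445) by −1.56 ± 0.26 (adjusted p = 0.00104) and crygmx by −1.45 ± 0.31 (adjusted p = 0.00734). The number of lower values was 13 without knockout-labelled replicate 1, without knockout-labelled replicate 3 or without mm-MO replicate 1, beside 2.72%, 2.86% and 2.8% of all genes, and 27 without the 4 libraries that stand apart, beside 8.55%.

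The order of the 24 hpf group means is given for all 60 genes in the table, with no filter on level. In 32 of the 60 it was knockout-labelled, WIK, mm-MO and her3-MO from lowest to highest, beside 5.76% of all genes in the table. The knockout-labelled mean was below the other 24 hpf means in 45 of the 60, beside 27.2%, and the her3-MO mean above them in 42, beside 25.3%. The gene crybb3 was lowest in her3-MO and highest in mm-MO, and cryaa was highest in WIK. Neighbours in this order often overlapped, as the sums above show for WIK and mm-MO and for mm-MO and her3-MO.

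The genes also moved together among replicate libraries of a group. At 24 hpf WIK replicate 1 was the highest of its group in 28 of the 38 genes that passed on the 24 hpf libraries, and replicate 3 the lowest in 28. Knockout-labelled replicate 1 was the lowest in 29 and replicate 2 the highest in 28, and mm-MO replicate 3 was the highest in 35. The her3-MO group was less uniform: replicate 1 was the lowest in 18, replicate 2 in 16, and replicate 3 was the highest in 20. At 72 hpf WIK replicate 2 was the highest of its group in 48 of the 56 genes and replicate 3 the lowest in 50. Knockout-labelled replicate 1 was the highest in 49 and replicate 3 the lowest in 49. Lens genes of 1 library are thus not independent readings of its group. These counts were not made over all genes, so whether the joint movement is particular to lens genes was not tested. They use CPM as deposited, and library totals differ, with 1206849 CPM in WIK 24 hpf replicate 1. As a share of all reads, crystallins took 0.0412%, 0.0398% and 0.0385% in the WIK libraries at 24 hpf. The shares were 0.0203%, 0.0314% and 0.0227% in knockout-labelled and 0.0503%, 0.0561% and 0.073% in mm-MO libraries. The part of scaling in the joint movement was not tested. WIK 24 hpf replicate 1, mm-MO replicate 3 and knockout-labelled 72 hpf replicate 3 are among the libraries that stand apart over all genes.

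Other genes of the lens and eye were read from lists beside these results. Of all genes tested 6.63% were called lower in the knockout-labelled libraries at 24 hpf and 6.01% higher. In a list of 12 or 17 genes 1 lower gene is close to that share. Of 17 genes that regulate lens development 1 was lower in the knockout-labelled libraries at 24 hpf, SOX1 (ENSDARG00000008131), at −0.42 ± 0.11, and the median was −0.17. At an unadjusted p under 0.05 limma gave 5 lower and 1 higher among these 17, beside 13.2% and 14.8% of all genes. These 17 genes summed to 878 to 1010 CPM in WIK and 829 to 852 CPM in knockout-labelled libraries, which did not overlap. Of 12 other lens genes 1 was lower, caprin2, which encodes an RNA-binding protein of fibre cells in mouse. It was at 14.6, 11.5 and 12.4 CPM in WIK and 6.25, 6.37 and 5.13 CPM in knockout-labelled libraries (−1.05 ± 0.18, adjusted p = 0.00077), and it was higher in her3-MO than in mm-MO (0.76 ± 0.18, adjusted p = 0.026). The 12 genes as a list did not share this difference between knockout-labelled and WIK libraries. Their median was 0.02, and limma gave 2 lower and 2 higher at an unadjusted p under 0.05. The list summed to 76.8 to 88.5 CPM in WIK and 78.6 to 87.8 CPM in knockout-labelled libraries, which overlapped. Of 9 small heat shock protein genes outside the rule 1 was lower, hspb2 (−0.65 ± 0.19), and of 7 other genes with crystallin names 1, crym (−0.83 ± 0.23), which encodes a thyroid hormone binding protein.

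Of the markers of neighbouring eye tissues, the pigment epithelium list was lowest in the knockout-labelled and highest in the her3-MO libraries at 24 hpf, each without overlap with the other groups of that age. Of 9 pigment epithelium genes 6 were lower in the knockout-labelled libraries at 24 hpf, beside 6.63% of all genes tested: dct, pmela, both TYRP1 genes and 2 RPE65 genes. Of these dct, TYRP1 and pmela also mark melanophores. The summed level of the list was 403 to 427 CPM in WIK, 295 to 318 CPM in knockout-labelled, 391 to 479 CPM in mm-MO and 549 to 570 CPM in her3-MO libraries. In her3-MO 4 of its genes were higher than in mm-MO, beside 1.45% of all genes. Of 10 retinal progenitor genes 2 were lower in the knockout-labelled libraries, rx2 (−0.53 ± 0.12) among them, and the list summed to 182 to 201 CPM in WIK, 156 to 166 CPM in knockout-labelled, 160 to 181 CPM in mm-MO and 186 to 202 CPM in her3-MO libraries. Of its genes 3 were lower in mm-MO than in WIK, beside 5.48% of all genes. Of 15 photoreceptor genes 1 was lower, pde6c (−1.13 ± 0.27), a share close to the 6.63% of all genes, and the list median was 0.0. The list summed to 31.9 to 36.7 CPM in WIK against 19.9 to 21.8 CPM in knockout-labelled libraries. Its sums were 20.9 to 31.4 CPM in mm-MO and 16.0 to 29.1 CPM in her3-MO libraries, below WIK in both. Of 6 surface epithelium genes 1 was lower, krt91 (−0.74 ± 0.14), and the list median was 0.01. At an unadjusted p under 0.05 limma gave 1 lower and 1 higher in this list. The list summed to 5710 to 6660 CPM in WIK and 6280 to 6960 CPM in knockout-labelled libraries, which overlapped. Of 6 skeletal muscle genes limma called 0 lower and 0 higher. At an unadjusted p under 0.05 it gave 2 lower and 0 higher, beside 13.2% and 14.8% of all genes. The median of the muscle list was −0.28. It summed to 7960 to 9370 CPM in WIK and 7010 to 7800 CPM in knockout-labelled libraries, which did not overlap. None of the pigment epithelium or retinal progenitor genes was at 0 in a 24 hpf library, and the part of these tissues in the lens differences was not tested.

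Many of the genes lie next to each other. In the gene order of the RefSeq assembly GRCz12tu, used only for neighbourhood because the files are on another build, crygm2c to crygs3 form an unbroken run of 31 genes named by the rule, of which 26 were in the table. Pairs of a beta A and a beta B gene are also adjacent. In cryba1l2 and crybb1l2, in crybb1 and cryba4, and in crybb1l1 and cryba1l1 both genes of the pair were lower in knockout-labelled libraries at 24 hpf. In the pair cryba1a and crybb1l3 neither was called. The gene cryba1a was at 0.170, 0.317 and 0.102 CPM in WIK and 0.09999, 0.107 and 0.0934 CPM in knockout-labelled libraries, and crybb1l3 at 0.594, 0.211 and 0.460 CPM and 0.09999, 0.161 and 0.0934 CPM, with 6 and 7 reads in all in the knockout-labelled libraries.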

How the data were processed

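Poly(A) RNA of pooled whole zebrafish embryos was sequenced in 18 libraries from a directional kit, per the labels' protocols. The authors deposited 1 table of CPM values for 25535 genes. Per the submitters' processing notes the tools were edgeR 3.34.0, featureCounts 2.0.2, SAMtools 1.10 and HISAT2 2.2.1, with build danRer11, and no settings are given. Each library's CPM sums to 912145 to 1206849, so the values are scaled to an effective library size. Within 0.01 reads, 100.0% of the values are whole multiples of 1 read, which gave 14214136 to 23135995 reads per library. A floor of 3 reads corresponds to 0.122 to 0.255 CPM and covers counting error only. All rows of the table were matched to samples by title.

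From the CPM values log2(CPM + 0.5) was computed and tested with limma 3.58.1 (R 4.3.3). The linear model had a coefficient for each group, used all 18 libraries, left 12 residual degrees of freedom, and was moderated by eBayes with a trend and the robust option. The level filter (1 CPM or more in 3 or more libraries) left 20738 genes and removed 4797. P-values were adjusted by the Benjamini-Hochberg method over these genes and called under 0.05. Each replicate is its own pool of embryos, so the tests reflect pool-to-pool spread. The fit was tested on simulated data with known changes. A count test had been planned in case raw counts were deposited; since the unit is CPM, log-scale limma took its place, and voom on the recovered reads was an alternative.

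Symbols came from a table that named 23539 of the genes. Both LIM2 genes were taken as lim2.4 and lim2.5 by elimination. The members and lists were chosen with earlier results of these data known. Values are given for the alpha genes, fibre genes and transcription factors, the 2 members of each beta and gamma class with the highest mean CPM, and the 3 greatest called differences per comparison. A few other genes were named after their values were seen, to complete a count or a pair. Samples with the same replicate number in different groups deviated together in 13 of 45 pairs (r over 0.1, median 0.005). Those with different numbers did so in 27 of 90 (median −0.0035). The numbers were therefore not treated as pairing, although such correlations cannot show whether a number stands for a shared clutch or day. Some member and marker genes were counted but are not reported by name here. No sequences were used.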

Additional observations from a re-analysis of the deposited data

Results flagged for a closer look

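The difference between the knockout-labelled line and WIK itself differed between ages for 2 fibre membrane genes, 3.57% of the 56 tested, beside 2.5% of all genes tested, so the number of calls was close to the background. For MIP (ENSDARG00000013963) the log2 difference at 72 hpf minus that at 24 hpf was 1.17 (adjusted p = 0.012). At 24 hpf every knockout-labelled library was below every WIK library, and at 72 hpf the lines overlapped. For LIM2 (ENSDARG00000015445) the same value was 1.08 (adjusted p = 0.0241), with the same arrangement of libraries at both ages. The first call held under each alternative tried and the second was lost without knockout-labelled 24 hpf replicate 1, WIK 72 hpf replicate 1 or 3, or knockout-labelled 72 hpf replicate 1 or 2. Explanations were not tested.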

How the results depend on the processing

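Over the settings tried, 120 results on named genes and calls gave 1718 values on the same side of the threshold, 197 that were no longer past it and 0 that reversed. Of 84 summed levels, 583 values moved by less than 1 SD, 5 moved further (with plain totals) and 0 reversed. The share of all genes called also changed with the setting, and it is given in brackets after the counts. With the compared groups alone in the fit, 3 genes were lower in knockout-labelled against WIK at 24 hpf (2.46%) and 0 at 72 hpf (9.12%). Then 0 were lower in her3-MO against mm-MO (0.492%) and 10 in the knockout-labelled minus morpholino test (2.3%). Higher genes numbered 3 in her3-MO against WIK (0.198%) and 0 in mm-MO against WIK (0.386%). With voom, lower genes numbered 13 at 24 hpf (5.73%) and 1 at 72 hpf (5.74%). Higher genes then numbered 1 in her3-MO against mm-MO (1.74%) and 2 in mm-MO against WIK (4.44%). A pseudocount of 0.1 gave 1 lower gene at 72 hpf (5.12%). It gave 4 genes with a higher value in the age test (2.27%) and 2 in the knockout-labelled minus morpholino test (3.71%). A pseudocount of 2 gave 0 lower genes in her3-MO against mm-MO (1.95%) and 1 lower value in the age test (2.89%). It gave 0 higher values in the knockout-labelled minus morpholino test (4.07%). A filter of 5 CPM gave 1 lower and 0 higher genes at 72 hpf (5.33% and 5.43%), since CRYGN (ENSDARG00000102129) was then not tested. Without a filter, with median-of-ratios scaling or with a replicate block, 0 genes were lower in her3-MO against mm-MO (1.56%, 1.82% and 1.7%). Plain totals gave 2 higher genes in her3-MO against mm-MO (1.96%) and 21 in mm-MO against WIK (9.09%). They gave 2 in the knockout-labelled minus morpholino test (3.48%). Without the 4 libraries that stand apart, 2 genes were higher at 72 hpf (11.4%). In her3-MO against mm-MO 0 were then lower and 7 higher (6.9% and 6.01%). In mm-MO against WIK 1 was lower (9.09%), and 8 had a higher value in the age test (5.35%). Leaving out 1 replicate at a time gave 4 to 26 lower genes at 24 hpf (3.96% to 7.57%). At 72 hpf it gave 1 to 2 lower and 1 to 1 higher (3.5% to 4.47% and 3.18% to 3.9%). In her3-MO against mm-MO it gave 0 to 1 lower and 0 to 3 higher (0.863% to 2.22% and 0.714% to 1.72%). Higher genes numbered 11 to 28 in her3-MO against WIK (2.12% to 13.8%) and 2 to 11 in mm-MO against WIK (2.34% to 7.29%). The same fits gave 52 to 53 higher genes from 24 to 72 hpf in the knockout-labelled line (35.3% to 35.7%). In the age test they gave 0 to 1 lower and 1 to 7 higher values (1.15% to 2.93% and 1.54% to 2.99%). In the knockout-labelled minus morpholino test they gave 13 to 26 lower and 1 to 2 higher values (2.72% to 4.55% and 2.71% to 4.8%). The cause of these changes was not tested. Replicate numbers were not treated as pairing the samples. With them as a replicate block 21 genes were lower at 24 hpf (6.2%) and 18 in the knockout-labelled minus morpholino test (3.37%). Higher genes then numbered 24 in her3-MO against WIK (6.24%) and 5 in mm-MO against WIK (4.49%). The planned quasi-likelihood count test was not run. Genes at a few reads at 24 hpf, most of them gamma M, are limited by depth: a level of 0 there allows up to 3 reads per library.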
